A study of Mus musculus with 16 samples.

Results

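The ubiquitin conjugating enzymes, or E2s, were followed in mouse hearts lacking the muscle ubiquitin ligases MuRF1 and MuRF2. They were taken as every gene with a non-control probe whose name in the array files, or whose current symbol by accession, begins with Ube2. This gave 85 of 41174 probes and 32 genes. Of these probes 70 passed the filter on dim signal, and 31 genes entered the tests among 12331 genes in all. Ube2u was the exception, because its 1 probe was above background on 0 arrays.

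Ubiquitin is passed from an activating enzyme (E1) to the active cysteine of an E2, and from there to a substrate with the help of a ligase (E3). The E2 often sets whether a substrate gets a first ubiquitin or a chain, and which lysine links the chain. Lys48 chains send proteins to the proteasome, Lys63 chains serve mainly in signalling and repair, and a few E2s carry other modifiers such as NEDD8. MuRF1 and MuRF2, encoded by Trim63 and Trim55, are RING ligases of striated muscle and need a separate E2 to act.

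Hearts of 12 week old mice were profiled in 4 groups of 4 arrays. The double null hearts were MuRF1 -/- MuRF2 -/-, the MuRF1 null MuRF2 het hearts MuRF1 -/- MuRF2 +/-, the MuRF1 het MuRF2 null hearts MuRF1 +/- MuRF2 -/- and the wild type hearts MuRF1 +/+ MuRF2 +/+. The labels call the groups strain-matched and the replicates biological. The sources used here do not say how the null alleles were made. Each array held heart RNA in Cy5 and the same reference in Cy3, a pool of RNA of entire C57BL/6 pups at postnatal day 1. Values are log2 ratios of heart to reference, so 0 means equal signal and a difference of 1 means a factor of 2. In whole hearts fewer cells of a type and less RNA per cell cannot be told apart.

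Trim63, the MuRF1 gene, had ratios of -1.04 to -0.39 in double null hearts, -0.85 to -0.34 in MuRF1 null MuRF2 het hearts, 1.70 to 2.13 in MuRF1 het MuRF2 null and 2.51 to 2.71 in wild type hearts. Trim55, the MuRF2 gene, was not lower in the groups without MuRF2, and the sources used here do not say whether its probe lies in the deleted part, so it does not check those labels. Cy5 signal was well above background for 6037 to 14503 probes on double null arrays, 6402 to 15067 on MuRF1 null MuRF2 het arrays, 16129 to 17391 on MuRF1 het MuRF2 null arrays and 15171 to 16664 on wild type arrays. Double null 2 and MuRF1 null MuRF2 het 1 were the dimmest, with 33 and 31 E2 probes above background, against 66 to 70 on wild type arrays. Ratios also spread least there, with an SD over all tested genes of 0.61 on double null 2 and 0.66 on MuRF1 null MuRF2 het 1, against 0.90 to 0.95 on wild type arrays. Slides 1 and 3 each held 2 double null and 2 wild type arrays, while slide 2 held all MuRF1 null MuRF2 het and slide 4 all MuRF1 het MuRF2 null arrays. For those groups the slide cannot be told apart from the genotype.

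Of the 31 E2 genes, 19 were above background on all 4 double null arrays, 17 on all 4 MuRF1 null MuRF2 het arrays, 30 on all 4 MuRF1 het MuRF2 null arrays and 30 on all 4 wild type arrays. Ube2c and Ube2d1 were not well above background on any double null or MuRF1 null MuRF2 het array, so no fold is given for them. No E2 gene had a saturated spot. The median SD between arrays of a group over the 31 genes was 0.18 in double null hearts, 0.16 in MuRF1 null MuRF2 het hearts, 0.11 in MuRF1 het MuRF2 null hearts and 0.087 in wild type hearts. The genes therefore varied most in the groups with the dimmest arrays.

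2 probes of Ube2k are shown because they measure the same gene and gave different group patterns in the results that follow. Both are on chromosome 5 and are 60 bases long, as listed in the deposited array files. In the design's coordinates both span more than their own length, and both can be read through without a stop codon in at least 1 frame.
A_52_P485376: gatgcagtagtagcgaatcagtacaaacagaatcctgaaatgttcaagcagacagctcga
A_51_P363714: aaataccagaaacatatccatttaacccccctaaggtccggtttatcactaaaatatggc

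In wild type hearts the E2 genes differed widely in their ratio to the pup reference. Ube2a, a RAD6 enzyme that ubiquitinates histone H2B and PCNA, stood highest at 1.18 ± 0.14 (SD, n = 4 throughout). It was followed by the NEDD8 enzyme Ube2m at 0.78 ± 0.079, by Ube2l3, which serves HECT and RBR ligases, at 0.71 ± 0.077, by the Lys63 enzyme Ube2n at 0.60 ± 0.027 and by Ube2e3 at 0.49 ± 0.077. Ube2m and Ube2l3 did not differ beyond their spread, nor did Ube2e3 and Ube2g2. At the low end stood Ube2c, which works with the anaphase-promoting complex, at -1.17 ± 0.14, Ube2e2 at -0.94 ± 0.077 and Ube2q1 at -0.76 ± 0.087. All 4 wild type arrays were above 0 for 16 genes and below 0 for 11, and they fell on both sides of 0 for the other 4. The median was 0.12 over the E2 genes and 0.059 over all tested genes. These are ratios to the reference, so they do not order the amounts of the genes in the heart.

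**Figure D1:**
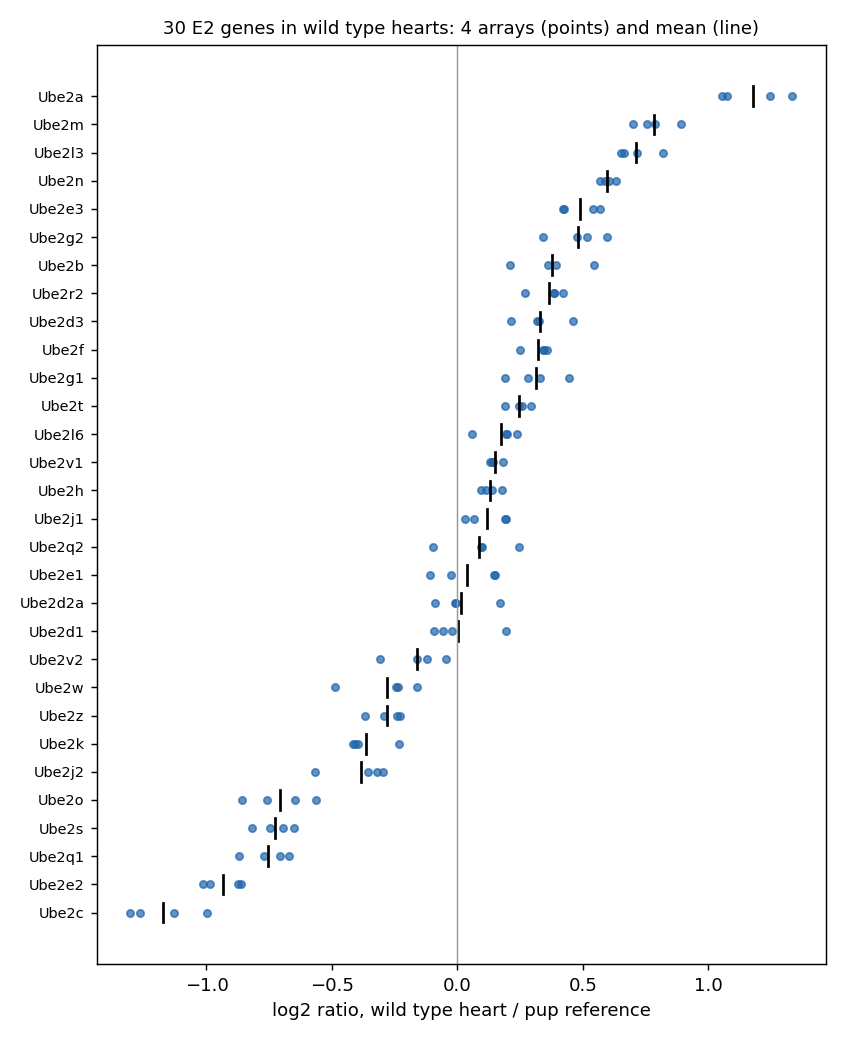
Log2 ratio of wild type heart to the pup reference (horizontal axis) for 30 of the 31 tested E2 genes (rows, ordered by mean), with points for the 4 arrays and a line at the mean. The means run from -1.17 for Ube2c to 1.18 for Ube2a, and the 4 arrays of most genes lie close together.

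Double null hearts were first set against wild type hearts, to ask which E2 genes change in the absence of both ligases. 1 E2 gene rose and 2 fell of 31, or 9.68%, against 22.3% of all tested genes, of which 10.3% rose and 12.0% fell. Past an unadjusted p of 0.05 there were 13 E2 genes, against 38.6% of all genes. The E2 genes had a median difference of 0.049 and all tested genes 0.0093, and 19 of the 31 differences were above 0. The arrays of the 2 groups did not overlap for 5 E2 genes, against 25.5% of all genes. Tests are limma's, with Benjamini-Hochberg adjustment over all genes, and errors of differences are standard errors (SE).

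Ube2e3, an initiating E2 of the Ube2e family on chromosome 2, fell in double null hearts. Its ratios were -0.06, 0.14, 0.22 and 0.11 in double null hearts, against 0.42, 0.43, 0.54 and 0.57 in wild type hearts. Every double null array lay below every wild type array, and the difference was -0.39 ± 0.091 (SE, limma adjusted p = 0.0087). Within slides it was -0.38 on slide 1 and -0.39 on slide 3. The call was lost on slide 1 alone, with 2 arrays against 2 (limma adjusted p = 0.24), and was kept in the other 23 alternatives, the leaving out of each array included. MuRF1 null MuRF2 het hearts had 0.21, 0.41, 0.52 and 0.56 and MuRF1 het MuRF2 null hearts 0.20, 0.36, 0.43 and 0.23. Those ranges reach from just under the highest double null array to the wild type arrays. The other probe of Ube2e3, from another transcript, was above background on 0 arrays.

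Ube2h, which works with the CTLH ligase complex, also fell. Its ratios were -0.18, -0.22, 0.07 and -0.13 in double null hearts, against 0.09, 0.14, 0.18 and 0.11 in wild type hearts. The groups did not overlap, with double null 3 just under the lowest wild type array, and the difference was -0.25 ± 0.081 (SE, limma adjusted p = 0.039). Two-sided tests of its other 2 kept probes gave differences of -0.028 and 0.00072 (limma adjusted p = 0.80 and 0.995), and with the mean of its probes the difference was -0.092 (limma adjusted p = 0.21). The call held in 6 of 23 alternatives and was lost with slide as a fixed block (limma adjusted p = 0.073).

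Ube2v2, the partner that lets Ube2n build Lys63 chains, rose. Its ratios were 0.11, 0.01, 0.04 and 0.16 in double null hearts, against -0.31, -0.16, -0.12 and -0.05 in wild type hearts. All double null arrays lay above all wild type arrays, and the difference was 0.24 ± 0.084 (SE, limma adjusted p = 0.049). It held in 3 of 23 alternatives and was -0.066 with the Feature Extraction ratios and -0.23 with median centring. Its other kept probes differed by 0.16 and 0.031 (limma adjusted p = 0.15 and 0.82).

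**Figure D2:**
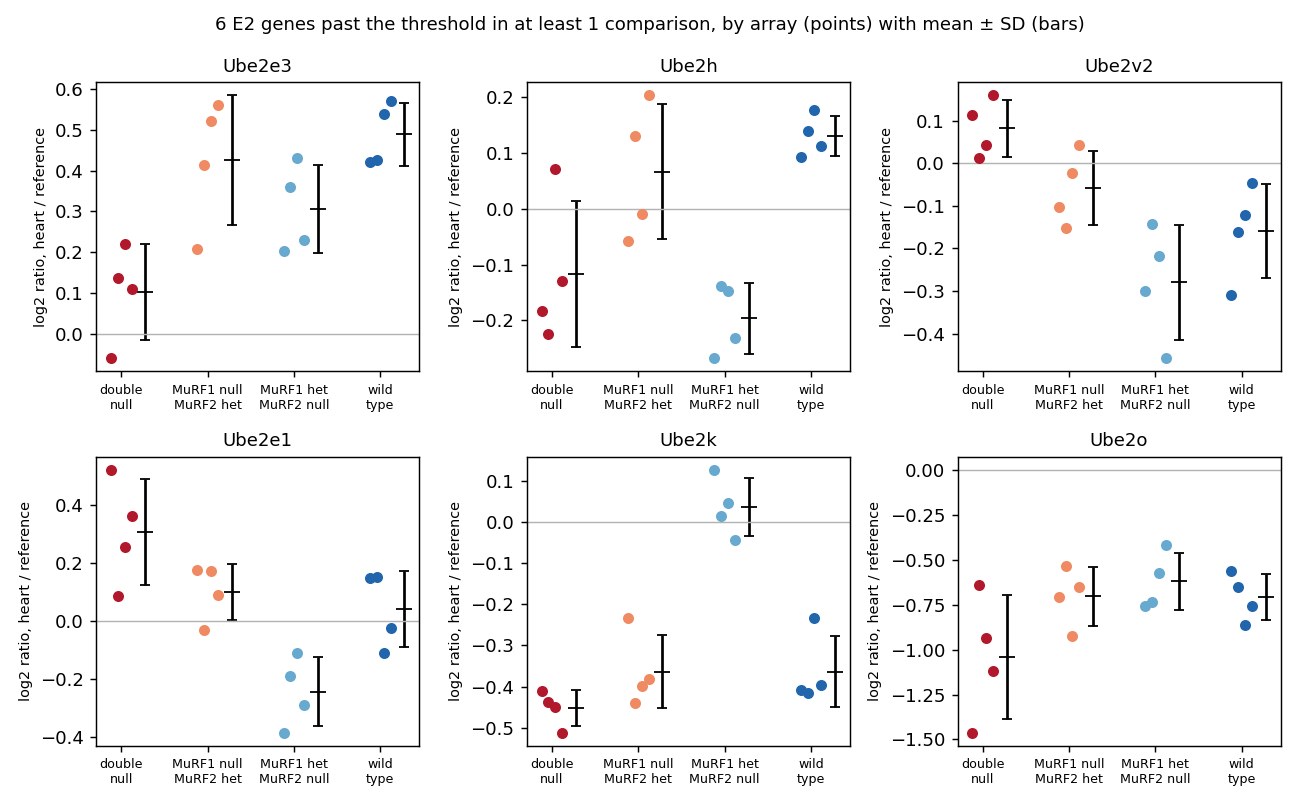
Log2 ratio of heart to reference for 6 E2 genes that passed in at least 1 comparison, by genotype group, with a point for each array and bars at the mean ± SD (n = 4). Ube2e3 is low in double null hearts, Ube2k is high in MuRF1 het MuRF2 null hearts, and Ube2e1 is lowest in MuRF1 het MuRF2 null hearts.

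How many E2 genes passed depended on single arrays. The count was 7 (2 rose, 5 fell) without double null 3. It was 1, and that was Ube2e3 in each case, without double null 4 or without any 1 of the wild type arrays. Without the 2 dimmest arrays, an alternative chosen after seeing the data, 8 E2 genes passed, against 29.3% of all genes. Then Ube2d3, Ube2e1, Ube2t, Ube2v2 and Ube2w rose, and Ube2e3 and Ube2o were among those that fell. Centring on the median in place of loess moved the median difference of all genes to -0.49 and gave 0 rises and 17 falls among the E2 genes, against 55.9% of all genes called. The E2 median was then -0.67.

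The other initiating E2s did not pass in double null against wild type hearts. Of 7 measured, 0 rose and 1, Ube2e3, fell, and their median difference was 0.19. Ube2d1, Ube2d2a and Ube2d3 encode near-identical enzymes that start chains for many RING ligases. Ube2d1 averaged 0.060 ± 0.070 in double null and 0.0047 ± 0.13 in wild type hearts (SD, limma adjusted p = 0.65), with both groups mostly below background. Ube2d2a had 0.05, -0.03, 0.28 and 0.09 in double null hearts, against -0.09, -0.01, 0.17 and -0.01 in wild type hearts, a difference of 0.081 ± 0.090 (SE, limma adjusted p = 0.53). Ube2d3 had 0.70, 0.18, 0.65 and 0.51 in double null hearts, against 0.21, 0.32, 0.46 and 0.32 in wild type hearts, a difference of 0.19 ± 0.11 (SE, limma adjusted p = 0.21). The groups overlapped for all 3 genes. Whether probes of this family share signal was not tested.

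Ube2e1 and Ube2e2 are close relatives of Ube2e3, and their differences had the opposite sign. Ube2e1 had 0.52, 0.08, 0.25 and 0.36 in double null hearts, against 0.15, 0.15, -0.11 and -0.03 in wild type hearts, with 1 double null array inside the wild type range. The difference was 0.26 ± 0.10 (SE, limma adjusted p = 0.067). Ube2e2 had -0.80, -0.28, -0.60 and -0.72 in double null hearts, against -0.86, -0.99, -0.87 and -1.01 in wild type hearts. The arrays did not overlap, the difference was 0.33 ± 0.12 and the limma adjusted p was 0.0503, just above the threshold of 0.05, so it did not pass. Ube2w, which modifies the N-terminus of proteins, differed by 0.27 ± 0.11 (SE, limma adjusted p = 0.084). Its other kept probe went the opposite way, by -0.14.

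Among the Lys48 chain builders none of 5 measured genes passed, and their median difference was -0.089. These were Ube2g1, Ube2g2, Ube2k, Ube2r2 and Cdc34, an E2 without the Ube2 name. Ube2g1 had 0.75, 0.30, 0.54 and 0.52 in double null hearts, against 0.28, 0.19, 0.45 and 0.33 in wild type hearts, a difference of 0.22 ± 0.12 (SE, limma adjusted p = 0.19). Ube2r2, a relative of Cdc34 that works with cullin ligases, differed by -0.29 ± 0.12 (SE, limma adjusted p = 0.082). Ube2g2, which serves degradation from the endoplasmic reticulum, differed by 0.044 ± 0.10 (SE, limma adjusted p = 0.78).

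The Lys63 enzyme Ube2n was 0.65 ± 0.32 in double null and 0.60 ± 0.027 in wild type hearts (SD, n = 4). Its arrays were 0.93, 0.18, 0.77 and 0.71 in double null hearts, against 0.59, 0.57, 0.61 and 0.63 in wild type hearts. The wild type arrays lay close together inside the wide double null range (limma adjusted p = 0.83). Ube2v1, the other partner of Ube2n, had -0.46, -0.27, 0.22 and -0.08 in double null hearts, against 0.14, 0.18, 0.13 and 0.14 in wild type hearts. Only double null 3 stood above the wild type arrays, and the difference was -0.30 ± 0.11 (SE, limma adjusted p = 0.063), of opposite sign to that of Ube2v2. The 3 kept probes of Ube2v1 ran from -0.30 to 0.037.

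Neither enzyme of the RAD6 pair passed, and by their brightest probes their differences had opposite signs. The other kept probe of Ube2a differed by 0.016, and the kept probes of Ube2b ran from -0.016 to 0.26. Ube2b, also known from muscle wasting as a partner of the ligase Ubr2, had 0.99, 0.59, 0.45 and 0.53 in double null hearts, against 0.39, 0.55, 0.21 and 0.36 in wild type hearts. The groups overlapped, and the difference was 0.26 ± 0.12 (SE, limma adjusted p = 0.10). Ube2a, which shares most of its sequence, differed by -0.12 ± 0.13 (SE, limma adjusted p = 0.55). Ube2j1 and Ube2j2, which are anchored in the membrane of the endoplasmic reticulum, differed by 0.096 ± 0.083 and 0.036 ± 0.11 (SE, limma adjusted p = 0.41 and 0.82). Ube2l3 had 0.42, 0.25, 0.68 and 0.41 in double null hearts, against 0.82, 0.72, 0.65 and 0.66 in wild type hearts. Double null 3 alone reached the wild type range, and the difference was -0.27 ± 0.10 (SE, limma adjusted p = 0.068). The other kept probe of Ube2l3 went the opposite way, by 0.16.

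For the cell cycle and repair enzymes 0 of 3 passed. Ube2t, the E2 of the Fanconi anaemia pathway, had 1.06, 0.45, 0.33 and 0.60 in double null hearts, against 0.29, 0.26, 0.25 and 0.19 in wild type hearts. All double null arrays were higher, by 0.36 ± 0.13 on average (SE, limma adjusted p = 0.060). Ube2c averaged -0.71 ± 0.37 in double null and -1.17 ± 0.14 in wild type hearts (SD, limma adjusted p = 0.096) and was not well above background in the double null group. Ube2s, which extends chains on the anaphase-promoting complex, differed by -0.018 ± 0.071 (SE, limma adjusted p = 0.87), but the coordinates in the files put its probe on another chromosome than the gene. Its other kept probe, also above background on all 16 arrays, differed by -0.115 and did not pass when tested singly. Of 5 measured markers of cycling cells, 0 passed in the same comparison, but all differences were above 0, with a median of 0.50. Cdk1 came nearest to passing, at 0.31 ± 0.11 (SE, limma adjusted p = 0.051). Their part in the E2 differences was not tested.

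Ube2m and Ube2f, which carry NEDD8, Ube2l6, which carries ISG15, and Ube2z, which takes its charge from Uba6, did not pass. Their differences ran from -0.12 for Ube2m to 0.10 for Ube2f. Of the 14 measured modifiers themselves 3 rose and 0 fell, a share near the 22.3% of all tested genes that passed in this comparison. Among them Nedd8 rose by 0.24 ± 0.071 and the ubiquitin fusion gene Rps27a by 0.98 ± 0.32 (SE, limma adjusted p = 0.026 and 0.041). Of 7 measured E1 genes, to be read against the same 22.3%, 1 fell, Uba1, the main E1 of ubiquitin, by -0.32 ± 0.11 (SE, limma adjusted p = 0.045). Of 7 measured E2-fold genes with other names none passed. Of 11 measured muscle E3 genes 4 passed, again beside 22.3% of all genes: Trim54 rose, and Nedd4, Asb2 and the targeted gene Trim63 fell.

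Among the remaining enzymes Ube2o, a large protein that joins E2 and E3 activity, had -1.46, -0.64, -0.94 and -1.12 in double null hearts, against -0.56, -0.65, -0.86 and -0.76 in wild type hearts. Double null 2, the dimmest array, lay inside the wild type range and the other 3 below it, with a difference of -0.33 ± 0.14 (SE, limma adjusted p = 0.10). The other kept probe of Ube2o went the opposite way, by 0.13. Ube2q1 and Ube2q2 differed by 0.084 ± 0.12 and 0.068 ± 0.11 (SE, limma adjusted p = 0.63 and 0.67).

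Some cell type markers moved in the same comparison, to be read beside the 22.3% of all tested genes that passed. The 8 cardiac muscle markers had mean ratios of 3.02 to 3.44 on double null and 3.56 to 3.71 on wild type arrays, and 2 of 8 fell. Of 6 endothelial markers 5 fell, with means of 0.089 to 0.38 on double null and 0.93 to 0.97 on wild type arrays. Of 4 atrial markers 3 rose, with means of -0.79 to 1.00 on double null and -1.78 to -1.41 on wild type arrays. Of 4 genes listed as skeletal muscle markers 3 fell (Myh4, Ckm and Atp2a1), with means of -0.76 to -0.21 on double null and 0.28 to 0.40 on wild type arrays. The remaining one, Actn3, went the other way without passing, by 0.68 ± 0.25 (SE, limma adjusted p = 0.063). Ckm and Atp2a1 averaged 1.545 and 2.39 in wild type hearts, above the reference, so neither is read as marking skeletal muscle alone. Of 3 smooth muscle markers 1, Tagln, rose. Of the measured fibroblast (5), macrophage (5), erythroid (3), adipocyte (3) and interferon response (7) genes, 0 passed. The part of all these markers in the E2 differences was not tested.

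**Figure D3:**
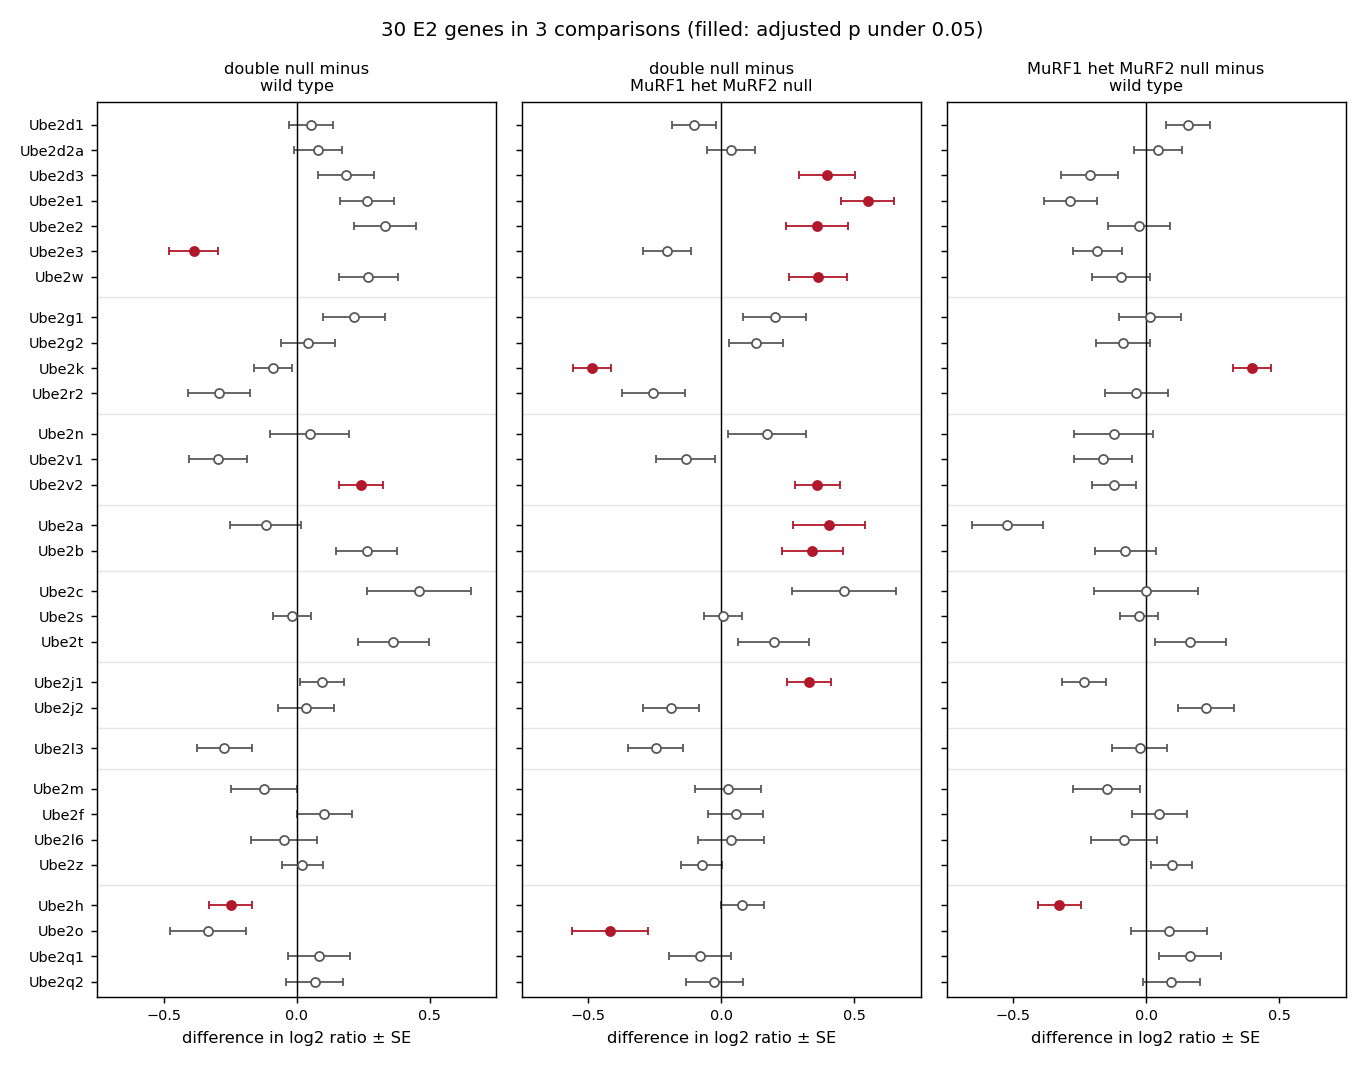
Difference in log2 ratio ± SE (horizontal axes) for 30 of the 31 tested E2 genes (rows, grouped by role) in double null minus wild type, double null minus MuRF1 het MuRF2 null and MuRF1 het MuRF2 null minus wild type, with filled red points past an adjusted p of 0.05. The filled points number 3, 10 and 2, and the middle panel shares its arrays with the other panels.

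The comparison of double null with MuRF1 het MuRF2 null hearts asks what the last MuRF1 allele changes when MuRF2 is absent. It gave the most E2 calls, 8 rises and 2 falls of 31, or 32.3%, against 26.4% of all tested genes. Past an unadjusted p of 0.05 were 14 E2 genes, against 40.0% of all genes. In both directions together the share called among E2 genes was near that of all genes. By direction, 25.8% of E2 genes rose against 13.7% of all genes, and 6.45% fell against 12.7%. The arrays did not overlap for 7 E2 genes, against 28.9% of all genes. The E2 median was 0.036 and that of all genes 0.015. Of 7 initiating E2s 4 rose and 0 fell, with a median of 0.36, and both RAD6 enzymes rose. The MuRF1 het MuRF2 null arrays were all on slide 4 and read with another version of the image software, so the slide cannot be told apart from the genotype.

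Ube2e1 rose most. Its ratios were 0.52, 0.08, 0.25 and 0.36 in double null hearts, against -0.39, -0.19, -0.11 and -0.29 in MuRF1 het MuRF2 null hearts. No arrays overlapped, and the difference was 0.55 ± 0.10 (SE, limma adjusted p = 0.0015). Ube2d3 had 0.70, 0.18, 0.65 and 0.51 in double null hearts, against 0.07, 0.13, 0.21 and 0.05 in MuRF1 het MuRF2 null hearts, a difference of 0.40 ± 0.11 (SE, limma adjusted p = 0.013). Only the dim double null 2 fell inside the other group. Ube2e2 had -0.80, -0.28, -0.60 and -0.72 in double null hearts, against -1.01, -0.95, -0.95 and -0.93 in MuRF1 het MuRF2 null hearts, a difference of 0.36 ± 0.12 (SE, limma adjusted p = 0.033). Ube2w had 0.18, -0.18, -0.15 and 0.11 in double null hearts, against -0.32, -0.37, -0.33 and -0.49 in MuRF1 het MuRF2 null hearts, a difference of 0.36 ± 0.11 (SE, limma adjusted p = 0.024). The arrays did not overlap for Ube2e2 or Ube2w. The other kept probe of Ube2w went the opposite way, by -0.18 ± 0.098 (SE, limma adjusted p = 0.18), and with the mean of both probes the difference was 0.091 (limma adjusted p = 0.485). Ube2e3 differed by -0.20 ± 0.091 (SE, limma adjusted p = 0.11).

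Both RAD6 enzymes rose. Ube2a had 1.53, 0.75, 1.05 and 0.91 in double null hearts, against 0.55, 0.83, 0.56 and 0.70 in MuRF1 het MuRF2 null hearts, a difference of 0.40 ± 0.13 (SE, limma adjusted p = 0.038). Its other kept probe differed by 0.055. Ube2b had 0.99, 0.59, 0.45 and 0.53 in double null hearts, against 0.22, 0.33, 0.34 and 0.30 in MuRF1 het MuRF2 null hearts, a difference of 0.34 ± 0.12 (SE, limma adjusted p = 0.040). Double null 2 overlapped the other group for Ube2a, and no array did for Ube2b. The highest value of both genes was on double null 1.

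Ube2j1, which works in degradation from the endoplasmic reticulum, rose. It had 0.42, 0.19, 0.12 and 0.13 in double null hearts, against -0.14, -0.19, -0.13 and 0.00 in MuRF1 het MuRF2 null hearts, a difference of 0.33 ± 0.083 (SE, limma adjusted p = 0.0095). Its other kept probe differed by -0.020 ± 0.092 (SE, limma adjusted p = 0.89), and with the mean of both probes the difference was 0.15 (limma adjusted p = 0.083). Ube2v2 had 0.11, 0.01, 0.04 and 0.16 in double null hearts, against -0.30, -0.14, -0.22 and -0.46 in MuRF1 het MuRF2 null hearts, a difference of 0.36 ± 0.084 (SE, limma adjusted p = 0.0062). Neither gene had overlapping arrays. Ube2n, its partner, differed by 0.17 ± 0.15 with its brightest probe (SE, limma adjusted p = 0.40). A second probe of Ube2n had 0.34, 0.12, 0.08 and 0.19 in double null hearts, against -0.27, -0.11, -0.16 and -0.27 in MuRF1 het MuRF2 null hearts, and passed when probes were tested singly, at 0.39 ± 0.074 (SE, limma adjusted p = 0.0020).

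Ube2k and Ube2o fell. Ube2o had -1.46, -0.64, -0.94 and -1.12 in double null hearts, against -0.76, -0.74, -0.57 and -0.42 in MuRF1 het MuRF2 null hearts, with double null 2 again inside the other group. The difference was -0.42 ± 0.14 (SE, limma adjusted p = 0.042). The other kept probe of Ube2o differed by only -0.019. Ube2k builds unanchored and anchored Lys48 chains and is named Hip2 in the files. It had -0.41, -0.44, -0.45 and -0.51 in double null hearts, against 0.13, 0.01, 0.05 and -0.04 in MuRF1 het MuRF2 null hearts. The groups lay well apart, and the difference was -0.49 ± 0.072 (SE, limma adjusted p = 0.00038).

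The number of calls here was 6 without double null 1, 5 without MuRF1 het MuRF2 null 4 and 6 without each of the other MuRF1 het MuRF2 null arrays. Ube2d3, Ube2e1, Ube2j1, Ube2k and Ube2v2 passed whichever array was left out. Without double null 1, Ube2a, Ube2b, Ube2o and Ube2w did not pass, without double null 2, Ube2b and Ube2e2, without double null 3, Ube2a, and without double null 4, Ube2o and Ube2w. Ube2b, Ube2e2 and Ube2o were also lost without any 1 of the MuRF1 het MuRF2 null arrays, Ube2a without array 1, 3 or 4 of that group and Ube2w without array 2 or 4. With the mean of kept probes Ube2e1, Ube2e2, Ube2v2 and Ube2k passed, as did Ube2n, while Ube2a, Ube2b, Ube2d3, Ube2j1, Ube2o and Ube2w did not. With median centring 0 E2 genes passed, the median of all genes moved to -0.15, and Ube2b, Ube2d3, Ube2e2 and Ube2j1 changed sign. Endothelial markers moved in this comparison too, where 26.4% of all tested genes passed. Of 6, 5 were lower, with means of 0.089 to 0.38 on double null and 0.74 to 1.10 on MuRF1 het MuRF2 null arrays. Of 8 cardiac muscle markers 3 were lower (Myh6, Ryr2 and Pln), with means of 3.02 to 3.44 on double null and 3.60 to 3.77 on MuRF1 het MuRF2 null arrays. Of 4 genes listed as skeletal muscle markers 2 were lower (Myh4 and Ckm), with means of -0.76 to -0.21 on double null and -0.14 to 0.048 on MuRF1 het MuRF2 null arrays. Actn3 went the other way without passing, averaging -1.93 in double null and -2.57 in MuRF1 het MuRF2 null hearts. Of 5 measured markers of cycling cells 3 were higher (Cdk1, Plk1 and Aurka), with means of -1.68 to -0.57 on double null and -1.88 to -1.78 on MuRF1 het MuRF2 null arrays. The atrial marker Nppa was higher and the interferon response gene Oasl2 lower. Their part in the E2 differences was not tested.

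The comparison of MuRF1 het MuRF2 null with wild type hearts asks what loss of MuRF2 with a single MuRF1 allele changes. 1 E2 gene rose and 1 fell of 31, or 6.45%, against 2.00% of all tested genes. The arrays did not overlap for 8 E2 genes, against 20.7% of all genes. Ube2k rose, with 0.13, 0.01, 0.05 and -0.04 in MuRF1 het MuRF2 null hearts, against -0.41, -0.42, -0.23 and -0.40 in wild type hearts. The difference was 0.40 ± 0.072 (SE, limma adjusted p = 0.0095), and it held whichever array was left out. Ube2h fell, with -0.27, -0.14, -0.15 and -0.23 in MuRF1 het MuRF2 null hearts, against 0.09, 0.14, 0.18 and 0.11 in wild type hearts. Its difference was -0.33 ± 0.081 (SE, limma adjusted p = 0.049), and it did not pass without any 1 array of the 8. In the Cy5 channel alone it was 0.30 and passed as a rise. The 3 kept probes of Ube2h ran from -0.33 to 0.0029, and 0 of them passed when tested singly. With the mean of its probes Ube2h did not pass. Ube2a had 0.55, 0.83, 0.56 and 0.70 in MuRF1 het MuRF2 null hearts, against 1.34, 1.25, 1.08 and 1.05 in wild type hearts. This was a difference of -0.52 ± 0.13 with no overlap (SE, limma adjusted p = 0.058). The other kept probe of Ube2a, also above background on all 16 arrays, differed by only -0.039. Among the cell type markers 1 of 5 measured macrophage genes, Adgre1, fell in this comparison, and its part in the E2 differences was not tested.

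The rise of Ube2k rested on 1 of its 3 kept probes. Its brightest probe, A_52_P485376, gave the values above. The second, A_51_P363714, averaged -0.58 ± 0.066 in double null hearts, -0.38 ± 0.092 in MuRF1 null MuRF2 het, -0.29 ± 0.090 in MuRF1 het MuRF2 null and -0.30 ± 0.15 in wild type hearts (SD, n = 4). By that probe the difference between MuRF1 het MuRF2 null and wild type hearts was 0.0050 ± 0.084 (SE, limma adjusted p = 0.99). It was lower in double null hearts, by -0.28 ± 0.084 against wild type hearts and by -0.29 ± 0.084 against MuRF1 het MuRF2 null hearts (SE, limma adjusted p = 0.027 and 0.021). The third, A_52_P279599, averaged 0.31 ± 0.085 in double null hearts, 0.17 ± 0.21 in MuRF1 null MuRF2 het, 0.14 ± 0.067 in MuRF1 het MuRF2 null and 0.23 ± 0.10 in wild type hearts (SD, n = 4). It passed in none of these comparisons. With the mean of the 3 probes the difference of MuRF1 het MuRF2 null from wild type hearts was 0.10 (limma adjusted p = 0.51).

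**Figure D4:**
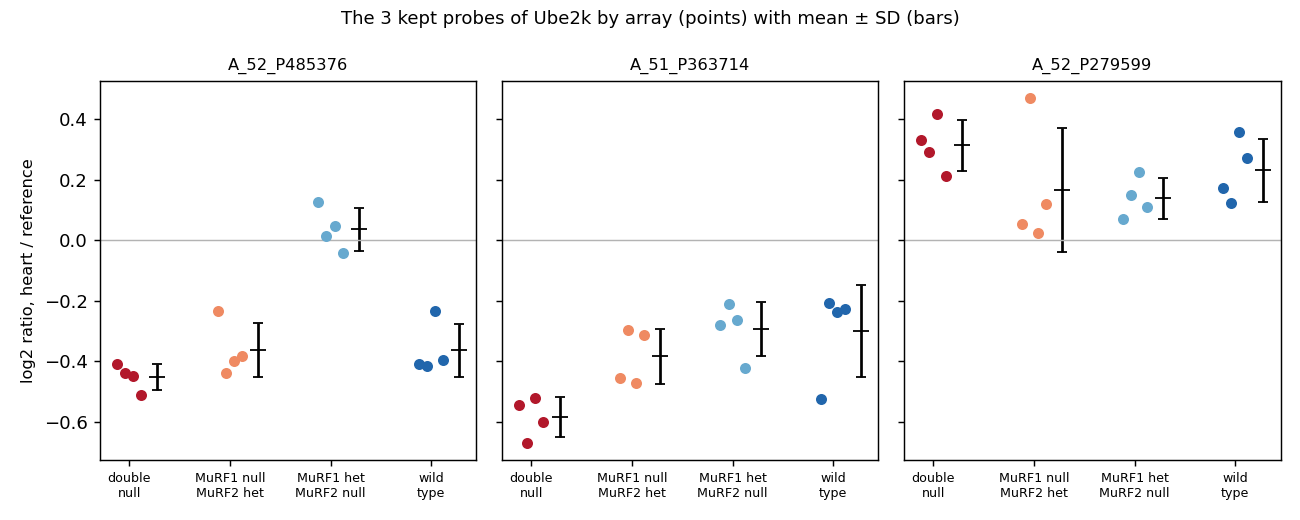
Log2 ratio of heart to reference for the 3 kept probes of Ube2k, by genotype group, with a point for each array and bars at the mean ± SD (n = 4). The first probe averages 0.035 in MuRF1 het MuRF2 null hearts and -0.36 in wild type hearts, while the second probe averages -0.29 and -0.30 in the same groups.

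No E2 gene passed when MuRF1 null MuRF2 het hearts were set beside double null or wild type hearts. Against wild type hearts 0 of 31 E2 genes passed by limma, against 1.03% of all tested genes, and 1, Ube2b, had an unadjusted p under 0.05, against 23.1% of all genes. The arrays did not overlap for 1 E2 gene, Ube2v1, against 12.7% of all genes. Ube2b had 0.76, 0.41, 0.78 and 0.60 in MuRF1 null MuRF2 het hearts, against 0.39, 0.55, 0.21 and 0.36 in wild type hearts, a difference of 0.26 ± 0.12 (SE, limma adjusted p = 0.20). Double null minus MuRF1 null MuRF2 het gave 0 of 31, against 0.349% of all genes, and 3 with an unadjusted p under 0.05, against 9.70% of all genes. The arrays did not overlap for 0 E2 genes, against 2.89% of all genes. These 3 were Ube2e3, Ube2h and Ube2o, all lower in double null hearts, by -0.32 ± 0.091, -0.18 ± 0.081 and -0.34 ± 0.14 (SE, limma adjusted p = 0.16, 0.47 and 0.45). Kept probes of Ube2h ran from -0.18 to 0.013, and the other kept probe of Ube2o differed by 0.16. Without MuRF1 null MuRF2 het 1 the count was 1, a fall of Ube2e3.

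MuRF1 null MuRF2 het against MuRF1 het MuRF2 null hearts compared the groups with 1 allele left at either gene. 1 E2 gene rose and 1 fell of 31, or 6.45%, against 8.53% of all tested genes, of which 4.59% rose and 3.94% fell. Past an unadjusted p of 0.05 were 10 E2 genes, against 28.3% of all genes, and the arrays did not overlap for 8, against 20.1%. Ube2e1 had 0.17, -0.03, 0.17 and 0.09 in MuRF1 null MuRF2 het hearts, against -0.39, -0.19, -0.11 and -0.29 in MuRF1 het MuRF2 null hearts, and rose by 0.34 ± 0.10 with no overlap (SE, limma adjusted p = 0.045). Ube2k had -0.23, -0.44, -0.40 and -0.38 in MuRF1 null MuRF2 het hearts, against 0.13, 0.01, 0.05 and -0.04 in MuRF1 het MuRF2 null hearts, and differed by -0.40 ± 0.072 (SE, limma adjusted p = 0.0066). When its 3 kept probes were tested singly 1 passed, and their differences ran from -0.40 to 0.028. With the mean of the probes Ube2k did not pass. The count was 4 without MuRF1 null MuRF2 het 2 and 1, Ube2k, without 7 of the 8 arrays taken singly. Of 6 endothelial markers 4 were lower (Tek, Flt1, Kdr and Eng), with means of 0.16 to 0.84 on MuRF1 null MuRF2 het and 0.74 to 1.10 on MuRF1 het MuRF2 null arrays. Of 8 cardiac muscle markers 2 were higher (Tnnt2 and Tnni3) and 1 lower (Ryr2), with means of 3.36 to 3.76 on MuRF1 null MuRF2 het and 3.60 to 3.77 on MuRF1 het MuRF2 null arrays. Their part in the E2 differences was not tested. Each of the 2 groups lay on a slide of its own, so again the slide cannot be told apart from the genotype.

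Probes of the same gene often differed. Of the 23 E2 genes with more than 1 kept probe, 15 had probes of both signs in double null minus wild type and 9 in double null minus MuRF1 het MuRF2 null. When each kept probe was tested on its own, 1 of 70 E2 probes rose and 4 fell in double null against wild type hearts, against 20.8% of all kept probes. Besides the probes of Ube2e3, Ube2h and Ube2v2 these included the second probe of Ube2k. In double null minus MuRF1 het MuRF2 null 10 of 70 rose and 3 fell, against 25.4% of all kept probes, with 2 probes of Ube2d3 rising and 2 of Ube2k falling. In the other comparisons the E2 probes past the threshold were 0 in MuRF1 null MuRF2 het minus wild type, against 1.15% of all kept probes, and 1 in MuRF1 het MuRF2 null minus wild type, against 1.68%. They were 0 in double null minus MuRF1 null MuRF2 het, against 0.244%, and 3 in MuRF1 null MuRF2 het minus MuRF1 het MuRF2 null, against 8.59%.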

How the data were processed

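Arrays were 2-colour Agilent 4x44K mouse arrays, 16 in all. Per the file headers, a GenePix scanner was used and spots were quantified with Feature Extraction 9.1.3.1 (12 arrays) or 9.5.3.1 (4 arrays). The deposited files give spot mean and local background median intensity in both colours and the authors' background-corrected, dye-normalised log10 ratio of Cy5 over Cy3. The deposited series matrix holds log2 ratios, for which 71.4% of values lay within 0.01 of the Feature Extraction ratio minus each probe's median over arrays. Its column medians ran from -0.028 to 0.024, and the sources used here do not say how it was made. Channel entries put heart RNA in Cy5 on every array, with no dye swap, while the labelling text names only Cy3-CTP, and the channel entries were followed. From 50 ng RNA per sample the labelling used amplification, per the labels.

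Intensities were processed in R 4.3.3 with limma 3.58.1 (tables were read by data.table, version 1.17.8): normexp background correction with offset 50, loess within arrays, and averaging of spots of a probe. The offset draws ratios of dim probes towards 0. Probes with Cy5 well above background on at least 4 of 16 arrays were kept, 16810 of 41174, and the brightest kept probe stood for its gene. Symbols came from the RefSeq annotation of the GRCm38.p6 assembly. E2 probes matched by accession (71) or name (14), and probes that match Ube2 only by an older synonym are not counted. limma was fitted over all 16 arrays with 1 mean per group, two-sided, with Benjamini-Hochberg adjustment over all genes of a comparison and a threshold of 0.05. Precision is limited by the 4 arrays of a group. For each gene the p-values use 1 spread between arrays, pooled over all 4 groups. The dim arrays therefore enter it also in comparisons of the other groups. The fit was tested on simulated data.

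Members and lists were chosen with earlier results of these data known. Every tested E2 gene is named except 1, which is counted but not reported here. Per-array values are given for genes past the threshold, up to the 16 largest differences in double null minus wild type and the 10 largest elsewhere, and 10 E2s linked to MuRF1 or muscle wasting are described in double null minus wild type whether or not they passed. Values of other E2 genes near the threshold were added after they were seen. Alternatives covered background, scaling, channel, filter, probe choice, slide, array weights, brightness, replicate number and each array left out. Same-numbered arrays deviated from their group means with correlations of -0.61 to 0.36, and 9 of 24 such pairs were above 0.1. Without a contrast to arrays of other numbers this cannot settle whether the numbers pair them. The labels name no pairing, and the main fit used none.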

Additional observations from a re-analysis of the deposited data

Results flagged for a closer look

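In 8 of 124 sets of 4 arrays (31 genes in 4 groups), or 6.45%, 1 array stood apart from the other 3 by a gap that, over the range, passed Dixon's critical value for 4 samples. By chance alone about 1 set in 20 does so. On MuRF1 null MuRF2 het 1, 1 of the 2 dimmest arrays, Ube2n was 0.078 (other arrays of the group 0.61 to 0.67), Ube2g2 was 0.25 (0.39 to 0.41) and Ube2r2 was -0.19 (0.25 to 0.33). In MuRF1 het MuRF2 null hearts Ube2d2a was 0.16 on array 3 (other arrays 0.017 to 0.035), Ube2q1 was -0.50 on array 1 (-0.63 to -0.62) and Ube2s was -0.65 on array 4 (-0.79 to -0.78). In wild type hearts Ube2f was 0.25 on array 2 (0.34 to 0.36) and Ube2k was -0.23 on array 3 (-0.42 to -0.40).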

How the results depend on the processing

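The counts of E2 genes past the threshold moved by over 1.5 times as follows, and the cause was not tested. In double null minus wild type the count of 3 was 17 with median centring, 5 in the Cy5 channel alone, 15 with array weights, 1 with slide as a fixed block, 1 with brightness as a covariate, 0 on slide 1 alone (2 arrays against 2) and 8 without the 2 dimmest arrays. With arrays left out singly it ran from 1 to 7. In MuRF1 het MuRF2 null minus wild type the count of 2 was 0 with the Feature Extraction ratios, 0 with the series matrix, 0 with the mean of all kept probes, 5 with median centring, 6 in Cy5 alone and 8 with array weights, and it was 1 without any single array. In MuRF1 null MuRF2 het minus MuRF1 het MuRF2 null the count of 2 was 1 with median centring, 8 in Cy5 alone, 1 with the filter on all 16 arrays, 1 with the mean of probes, 7 with array weights, 5 with brightness as a covariate and 4 without the dimmest arrays, and 1 to 4 with arrays left out. In double null minus MuRF1 het MuRF2 null the count of 10 was 0 with median centring, 5 with the mean of probes and 18 with array weights, and 5 to 13 with arrays left out. In double null minus MuRF1 null MuRF2 het the count of 0 was 3 with array weights and 1 without the dimmest arrays, and 0 to 1 with arrays left out. In MuRF1 null MuRF2 het minus wild type the count of 0 was 22 with median centring and stayed 0 otherwise. Array weights raised the calls among all genes too, to 49.8% in double null minus wild type. With the replicate number as a block the counts were 2 in double null minus wild type, 8 in double null minus MuRF1 het MuRF2 null, 1 in MuRF1 het MuRF2 null minus wild type, 1 in MuRF1 null MuRF2 het minus MuRF1 het MuRF2 null and 0 in the other comparisons.

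Signs changed as follows. With median centring, in double null minus wild type, Ube2b was -1.03, Ube2d2a -0.67, Ube2d3 -0.85, Ube2e1 -0.48, Ube2g1 -0.55, Ube2j1 -0.86, Ube2j2 -0.61, Ube2n -0.28 and Ube2v2 -0.23, where the median of all genes was -0.49. With it Ube2b was -0.34, Ube2d3 -0.17, Ube2e2 -0.11 and Ube2j1 -0.12 in double null minus MuRF1 het MuRF2 null, and Ube2k was -0.16 in MuRF1 het MuRF2 null minus wild type. With the Feature Extraction ratios Ube2d1 was -0.52, Ube2d2a -0.014, Ube2j2 -0.57 and Ube2v2 -0.066 in double null minus wild type, and the series matrix gave -0.52, -0.014, -0.57 and -0.066. In the same comparison Ube2j1 was -0.057 with the mean of probes and -0.0013 with array weights. Ube2j2 was -0.026 with no background correction and -0.0011 in Cy5 alone, and Ube2n was -0.022 on slide 1 alone. With arrays left out singly Ube2j2 ran from -0.025 to 0.082 and Ube2n from -0.046 to 0.20. Ube2h in MuRF1 het MuRF2 null minus wild type was 0.30 in Cy5 alone, where it passed as a rise. Dim signal on double null and MuRF1 null MuRF2 het arrays limits what can be read for genes near background.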
